A study of Mus musculus with 7 samples.

Results

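The expression of 10 imprinted growth genes was followed in mouse cells sorted by a neural crest lineage label. They were taken by symbol from the 32285 genes of the count matrices, and all 10 were present: Igf2, H19, Dlk1, Meg3, Plagl1, Mest, Peg3, Grb10, Peg10 and Cdkn1c. An imprinted gene is read mainly from the copy inherited from one parent, and the choice is written as DNA methylation at control regions in the germ line. Many imprinted genes act on growth in the embryo and placenta. In general those read from the paternal copy promote growth (Igf2, Dlk1, Plagl1, Mest, Peg3 and Peg10 are paternally expressed) and those read from the maternal copy restrain it (H19, Meg3, Cdkn1c and, outside neurons, Grb10). The libraries here hold no parental origin, so the values are the sum of both copies.

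The study sorted EGFP-positive cells from embryos of a mixed Swiss-Webster background carrying Wnt1-Cre/+ and ROSA-EGFPf/+, a lineage label set in neural crest cells and in the dorsal neural tube, and made 10x 3' single-cell RNA libraries, each from a pool of embryos of 1 genotype. Control libraries (Wnt1-Cre/+;ROSA-EGFPf/+) were 1 at embryonic day (E) 8.5 from the rostral embryo with the head (kit v2), 1 at E9.5 from the pharyngeal apparatus with the heart (kit v3.1) and 2 at E10.5 from arches 2 to 6 with the heart (kit v3.1). The tissue of E9.5 and E10.5 included neural tube. The libraries labelled Tbx1 null were 1 at E9.5 (kit v3) and 2 at E10.5 (the first with kit v3, the second with kit v3.1), from the same regions as the controls of their stage, the first arch being left out at E10.5. Their titles read Tbx1 null, their genotype field reads Wnt1-Cre/+;Tbx1+/-;ROSA-EGFPf/+, and the study's methods describe homozygous loss, so they are called "labelled Tbx1 null" throughout.

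The 7 matrices held 65862 barcodes, of which 53538 were kept (5587 to 9557 a library, with 14857 to 22882 median UMIs a cell), and pairs of libraries shared 0 to 27 barcodes. Cells were classed from marker genes that are not among the 10. Mesenchymal cells had at least 2 UMIs of Twist1, Prrx1 and Prrx2 together, Sox10 cells at least 2 of Sox10, and neural cells at least 2 of 8 neural genes, the later classes having fewer than 2 UMIs of the earlier ones. Check genes not used in the rules (Pdgfra, Col3a1 and Dlx2 for mesenchyme, Nes, Zic1 and Sox21 for neural cells) were highest in the class they mark in all 7 libraries, so these class names held, and the Sox10 class is named for its rule. Tbx1, measured by a 3' tag that need not lie in the deleted part and so does not check the genotype, was at 6.18 and 6.26 CPM (UMIs of the gene scaled to the same total in each library and class) in mesenchymal cells of the labelled Tbx1 null libraries at E10.5 against 7.82 and 4.57 in controls, and at 0.0338 and 0.119 against 1.46 and 0.857 in neural cells.

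One library stood apart. In the second labelled Tbx1 null library at E10.5, 72.1% of the mesenchymal cells also met the Sox10 or the neural rule, against 5.88% to 33.2% in the other 5 libraries of E9.5 and E10.5. The neural check genes summed to 294 CPM in its mesenchymal cells (53.0 to 160 in the other 5), and 4 haemoglobin genes to 415 CPM in its neural cells (0.0668 to 1.5 in the other 5). The main differences at E10.5 between the labelled null and control libraries are therefore also given without this library or with the cells that met more than 1 rule left out. Cells, UMIs and CPM below refer to sums over all cells of a class in a library, and a UMI is 1 captured RNA molecule.

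All 10 genes were placed on GRCm38, the build of the deposited counts. Igf2 (chr7:142650766-142666816, minus strand) and H19 (chr7:142575529-142578143, minus strand) lie 72.6 kb apart, and Cdkn1c (chr7:143458339-143461050, minus strand) lies 791.5 kb from Igf2. Dlk1 (chr12:109452823-109463336, plus strand) and Meg3 (chr12:109541001-109571726, plus strand) lie 77.7 kb apart. Peg3 is at chr7:6703892-6730431, Mest at chr6:30723547-30748465, Peg10 at chr6:4747306-4760517, Plagl1 at chr10:13060504-13131694 and Grb10 at chr11:11930508-12038683. H19 and Meg3 are long noncoding RNAs, and the other 8 encode proteins.

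Of the 10 genes, 4 host microRNAs on their own strand, which are cut from the same primary transcripts. Their 9 mature sequences in RefSeq (GRCm38.p6) are shown because the host transcripts are what the UMIs below count; the microRNAs themselves were not measured. Seeds (bases 2 to 8) are in capitals, and all 9 differ.
mmu-miR-483-5p (in Igf2, chr7:142654968-142654989): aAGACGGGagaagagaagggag
mmu-miR-483-3p (in Igf2, chr7:142654932-142654952): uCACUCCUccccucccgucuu
mmu-miR-675-5p (in H19, chr7:142577112-142577133): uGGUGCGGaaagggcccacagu
mmu-miR-675-3p (in H19, chr7:142577078-142577099): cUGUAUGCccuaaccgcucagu
mmu-miR-1906 (in Meg3, chr12:109544588-109544609): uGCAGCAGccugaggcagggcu
mmu-miR-770-5p (in Meg3, chr12:109563710-109563731): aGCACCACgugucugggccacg
mmu-miR-770-3p (in Meg3, chr12:109563744-109563765): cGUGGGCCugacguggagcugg
mmu-miR-335-5p (in Mest, chr6:30741314-30741336): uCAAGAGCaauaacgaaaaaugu
mmu-miR-335-3p (in Mest, chr6:30741354-30741375): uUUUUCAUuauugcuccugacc

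The first question was in which of the sorted cell classes the genes were read. The study identified cells of the neural tube by Zic1 and Zic2, and Zic1 is among the neural check genes here. The neural class is therefore not taken as a crest derivative alone. Of the 10 genes, 7 were higher in mesenchymal than in neural cells, led by Igf2 at 17.0-fold and H19 at 11.6-fold, and 1, Cdkn1c, was lower. The contrast was fitted over the 6 libraries of E9.5 and E10.5 with library as a block (edgeR quasi-likelihood test, Benjamini-Hochberg over all genes), and 27.8% of the 15074 genes tested were called higher and 23.8% lower. The median log2 difference of the 10 genes was 1.34, against 0.04 for all genes tested. CPM are 3' tag counts with no length scaling, so values are compared between cells for each gene and not between genes.

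Igf2, the ligand of the IGF1 and IGF2 receptors, was at 26.3 CPM in mesenchymal cells of the control E9.5 library, 176 and 199 in the 2 control E10.5 libraries, 29.3 in the labelled Tbx1 null E9.5 library and 84.4 and 109 in the labelled null E10.5 libraries. In neural cells the same libraries gave 4.34, 4.14, 13.8, 3.50, 2.71 and 6.69 CPM. Every library had more Igf2 in mesenchyme, by 6.05 to 42.4 times, and the log2 difference was 4.09 ± 0.37 (SE, n = 6 libraries, adjusted p = 0.000145). H19, the noncoding RNA downstream of Igf2, followed it with a log2 difference of 3.53 ± 0.27 (adjusted p = 8.12e-05) and 5.28 to 25.0 times more in mesenchyme in every library. Neural cells are taken here as a whole: in the few neuronal cells of E9.5 H19 was at 80.1 and 56.0 CPM (control and labelled null) and Igf2 at 32.0 and 22.1, beside mesenchymal levels of 69.7 and 73.5 and of 26.3 and 29.3 in the same libraries.

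Dlk1, a transmembrane protein with EGF repeats related to Notch ligands, was at 53.6, 196, 162, 70.5, 210 and 101 CPM in mesenchymal cells in the same library order and at 3.61, 20.7, 41.4, 6.14, 12.6 and 38.7 in neural cells (log2 difference 3.09 ± 0.42, adjusted p = 0.000798). Peg3, a zinc finger protein, was 3.57 to 12.5 times higher in mesenchyme (3.03 ± 0.23, adjusted p = 7.4e-05). Mest, a protein of the hydrolase fold, was at 1.60 ± 0.18 and Peg10, a gene derived from a retrotransposon, at 1.08 ± 0.12, with Grb10, an adaptor that restrains insulin and IGF receptor signalling, at 0.50 ± 0.09 (adjusted p = 0.000349, 0.000372 and 0.00335). In each of these the 6 libraries pointed the same way except for Grb10, whose mesenchymal level was 0.923 times the neural one in the control E9.5 library.

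The remaining 3 genes went otherwise. Meg3, the noncoding RNA beside Dlk1, was at 89.1 to 295 CPM in mesenchyme and 75.4 to 399 in neural cells, a log2 difference of 0.10 ± 0.15 (adjusted p = 0.592). Plagl1, a zinc finger transcription factor, was at 0.03 ± 0.51 (adjusted p = 0.966), being higher in neural cells at E9.5 and higher in mesenchyme in 3 of 4 libraries at E10.5. Cdkn1c, the cyclin-dependent kinase inhibitor p57, was lower in mesenchyme by 2.14-fold (log2 difference -1.10 ± 0.26, adjusted p = 0.00932), at 408 to 837 CPM against 1067 to 2113 in neural cells at E10.5. Within the neural class, neuronal cells were at 990 to 3159 CPM in the 6 libraries, and the mesenchymal level was above that of neural progenitors in 4 of the 6 (435 against 337, 227 against 183, 504 against 325 and 837 against 521).

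Against Sox10 cells, the glial and melanocytic precursors and early crest marked by this transcription factor, 8 of 10 genes were higher in mesenchyme and Grb10 was lower (18.9% of 14066 genes tested were called higher and 14.9% lower). Dlk1 differed by 10.9-fold, Peg3 by 10.0-fold, Plagl1 by 8.33-fold and Igf2 by 8.16-fold (log2 differences 3.44 ± 0.54, 3.33 ± 0.20, 3.06 ± 0.16 and 3.03 ± 0.47). H19 differed less, at 1.53 ± 0.27, and Mest, Meg3 and Peg10 by 0.89 ± 0.10, 0.85 ± 0.23 and 0.65 ± 0.10. Grb10 was 1.29-fold lower in mesenchyme (adjusted p = 0.0028) and Cdkn1c was at -0.21 ± 0.16 (adjusted p = 0.365). Between 30.8% and 94.6% of Sox10 cells also met the neural rule. In each fit that left out 1 library, 8 of the 10 genes were called in the mesenchymal and neural contrast and 8 or 9 in this one. The share of all genes called in those fits is not given here.

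Free RNA in a droplet suspension gives every cell some UMIs of abundant genes, so the neural level was set against that of mesenchymal genes. Neural cells had 2.36% to 16.5% of the mesenchymal Igf2 level, 4.00% to 18.9% for H19, 6.01% to 38.3% for Dlk1 and 8.02% to 28.0% for Peg3. The same share was 0.619% to 5.85% for Dlx5, 0.363% to 2.68% for Barx1, 0.923% to 3.86% for Col3a1, 1.51% to 20.7% for Hand2, 4.71% to 26.8% for Postn and 2.85% to 46.7% for Tbx3. The ranges of all 4 genes lay within the span of these 6, but that span is wide. The ranges of Dlk1 and Peg3 lay above those of Dlx5, Barx1 and Col3a1, while those of Igf2 and H19 overlapped that of Dlx5. Postn is not a gene of mesenchyme alone, at 177% to 1004% of its mesenchymal level in Sox10 cells. The part of free RNA in the neural levels was not tested.

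After thinning each cell to 5000 UMIs, 24.2% to 46.3% of mesenchymal cells at E10.5 held an Igf2 UMI against 0.919% to 3.04% of neural cells, and at E9.5 10.7% to 11.3% against 1.40% to 1.51%. Mest was in 85.9% to 97.1% of mesenchymal cells at E10.5 and Plagl1 in 10.4% to 21.2%. Thinning left out 9 to 180 mesenchymal and 15 to 117 neural cells a library as too shallow, and before thinning the median depth was 16314 to 24664 UMIs in mesenchymal and 9114 to 16043 in neural cells.

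**Figure D1:**
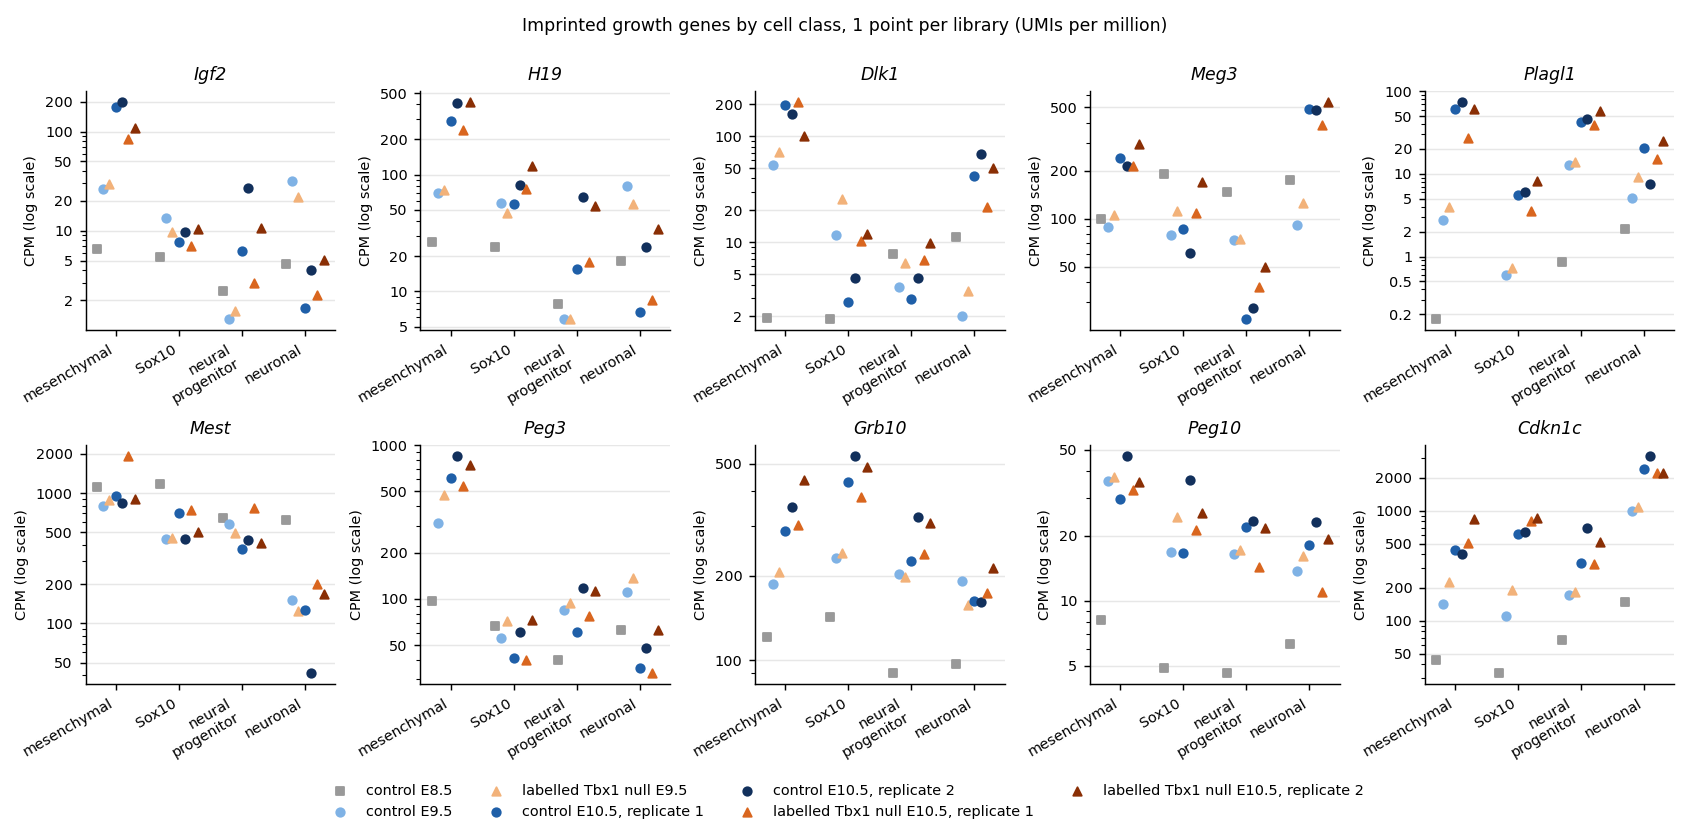
CPM of the 10 genes (log axis, 1 panel a gene) in mesenchymal, Sox10, neural progenitor and neuronal cells, with 1 point for each of the 7 libraries; Plagl1 in Sox10 cells at E8.5 was 0 and is not drawn. Igf2 and Peg3 sit highest in mesenchyme at E10.5, Meg3 and Cdkn1c in neuronal cells.

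Within the neural class the 10 genes split. Neuronal cells had at least 3 UMIs of Elavl3, Elavl4, Dcx and Stmn2 together, and the rest were called neural progenitors. Of the 10 genes, 3 were higher in neuronal cells (Meg3, Cdkn1c and Dlk1) and 4 lower (Mest, Plagl1, Grb10 and Peg10), where 32% of the 13402 genes tested were called higher and 32.9% lower, so a share of 7 in 10 called is near the 64.9% of all genes.

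Cdkn1c was at 172, 337, 690, 183, 325 and 521 CPM in neural progenitors and 990, 2394, 3159, 1088, 2221 and 2197 in neuronal cells, in the order control E9.5, control E10.5 (2 libraries), labelled null E9.5 and labelled null E10.5 (2 libraries). The groups did not overlap, and the log2 difference was 2.52 ± 0.10 (adjusted p = 4.71e-07). Meg3 was 7.26-fold higher in neuronal cells (2.86 ± 0.60, adjusted p = 0.00281) and Dlk1 4.83-fold (2.27 ± 0.51, adjusted p = 0.00388). Mest was 3.92-fold lower (-1.97 ± 0.23, adjusted p = 9.21e-05) and Plagl1 2.59-fold lower (-1.37 ± 0.19, adjusted p = 0.000264).

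The size of the Meg3 difference varied with stage. At E9.5 Meg3 was at 73.7 and 74.1 CPM in progenitors and 91.2 and 126 in neuronal cells. At E10.5 it was at 23.5 to 49.7 in progenitors and 390 to 541 in neuronal cells, further apart on both sides. Igf2 went the other way, at 1.30 and 1.55 CPM in progenitors against 32.0 and 22.1 in neuronal cells at E9.5, and at 3.0 to 27.1 against 1.68 to 5.05 at E10.5. Over both stages its log2 difference was 0.03 ± 0.96 (adjusted p = 0.984). Dlk1 was lower in neuronal cells at E9.5, at 2.02 and 3.47 CPM (6 and 8 UMIs) against 3.78 and 6.42 in progenitors. At E10.5 Dlk1 was higher in them, at 21.7 to 68.4 against 2.89 to 9.78. These changes with stage were not tested, and the E9.5 libraries held 197 and 177 neuronal cells.

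Within the mesenchyme, the genes were compared over 5 exclusive subsets. Cells with a UMI of Foxf1 were taken first, then Hand2, then Hoxa3, Hoxb3 or Hoxd3 (Hox3), then Hoxa2, and the rest had none. Hand2 is a transcription factor of ventral arch and outflow tract mesenchyme, Foxf1 a forkhead factor of mesenchyme close to the endoderm, Hox group 3 genes mark the third and more caudal arches, and Hoxa2 the second and caudal arches. Of the 10 genes, 6 were higher in Foxf1 mesenchyme than in the mean of the other subsets and none lower (12.8% of 13866 genes tested were called higher and 12.7% lower), and 8 were higher in Hand2 mesenchyme and none lower (5.24% called higher, 4.77% lower).

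Igf2 in Foxf1 mesenchyme was at 96.5 CPM in the control E9.5 library, 323 and 386 in the control E10.5 libraries, 93.9 in the labelled null E9.5 library and 168 and 183 in the labelled null E10.5 libraries. In Hand2 mesenchyme it was at 60.7, 316, 333, 52.6, 122 and 228, and in Hox3 mesenchyme at 5.98, 68.0, 115, 7.98, 31.0 and 44.6. Both Foxf1 and Hand2 cells exceeded the other 3 subsets in 6 of 6 libraries for Igf2, H19, Dlk1 and Peg3, and in 5 of 6 for Meg3. The log2 difference of Foxf1 mesenchyme was 1.81 ± 0.21 for Igf2 (adjusted p = 8.89e-07), 1.72 ± 0.15 for H19, 2.20 ± 0.24 for Dlk1, 1.13 ± 0.18 for Meg3 and 0.99 ± 0.14 for Peg3.

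Plagl1 had the largest log2 difference of the 10 genes in Foxf1 mesenchyme. It was highest in Foxf1 mesenchyme in 6 of 6 libraries, at 8.87, 212, 291, 11.5, 65.4 and 192 CPM, against 4.63, 70.8, 99.6, 4.11, 19.5 and 68.4 in Hand2 mesenchyme and 1.77 to 19.7 in Hoxa2 mesenchyme. Its log2 difference was 2.82 ± 0.29 in Foxf1 cells (7.06-fold, adjusted p = 1.03e-07) and 0.97 ± 0.30 in Hand2 cells (adjusted p = 0.0409); the latter call was lost in 4 of the 6 fits that left out 1 library and with DESeq2 (adjusted p = 0.136). Mest, Grb10, Peg10 and Cdkn1c did not pass the test in Foxf1 mesenchyme, at 0.04 ± 0.06, 0.17 ± 0.09, 0.27 ± 0.12 and 0.10 ± 0.18. In Hand2 mesenchyme Peg10 was higher by 0.70 ± 0.12 and Mest by 0.27 ± 0.06.

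The subsets without Foxf1 and Hand2 lay on the other side. In Hoxa2 mesenchyme 7 of the 10 genes were lower and none higher, where 2.32% of all genes were called lower and 1.49% higher: Dlk1 by 4.18-fold, Plagl1 by 4.03-fold, Igf2 by 2.26-fold, H19 by 2.18-fold, Meg3 by 2.17-fold, Peg10 by 1.56-fold and Peg3 by 1.46-fold. In Hox3 mesenchyme 4 were lower (13.8% of all genes called lower, 14.8% higher), Igf2 by -1.40 ± 0.26, H19 by -1.24 ± 0.18, Peg3 by -0.50 ± 0.15 and Mest by -0.24 ± 0.06 on the log2 scale. The Peg3 and Mest calls ended without the cells that met more than 1 class rule, at -0.03 and 0.04. Such cells made up 52.1% and 54.1% of Hox3 mesenchyme at E9.5 (control and labelled null). At E10.5 they made up 42.9% and 14.2% in the control and 57.6% and 84.3% in the labelled null libraries. Without them Hox3 Igf2 was at 7.03, 103, 124, 12.5, 55.9 and 104 CPM in the same library order as before. In mesenchyme with none of the markers 4 were lower (1.77% called lower, 2.95% higher), Dlk1 by 2.98-fold, Meg3 by 1.83-fold, H19 by 1.61-fold and Peg10 by 1.45-fold. The 5 subsets stand in 1 fit, so a gene high in 2 of them is low in the others by construction. Neither Cdkn1c nor Grb10 was called in any of the 5.

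**Figure D2:**
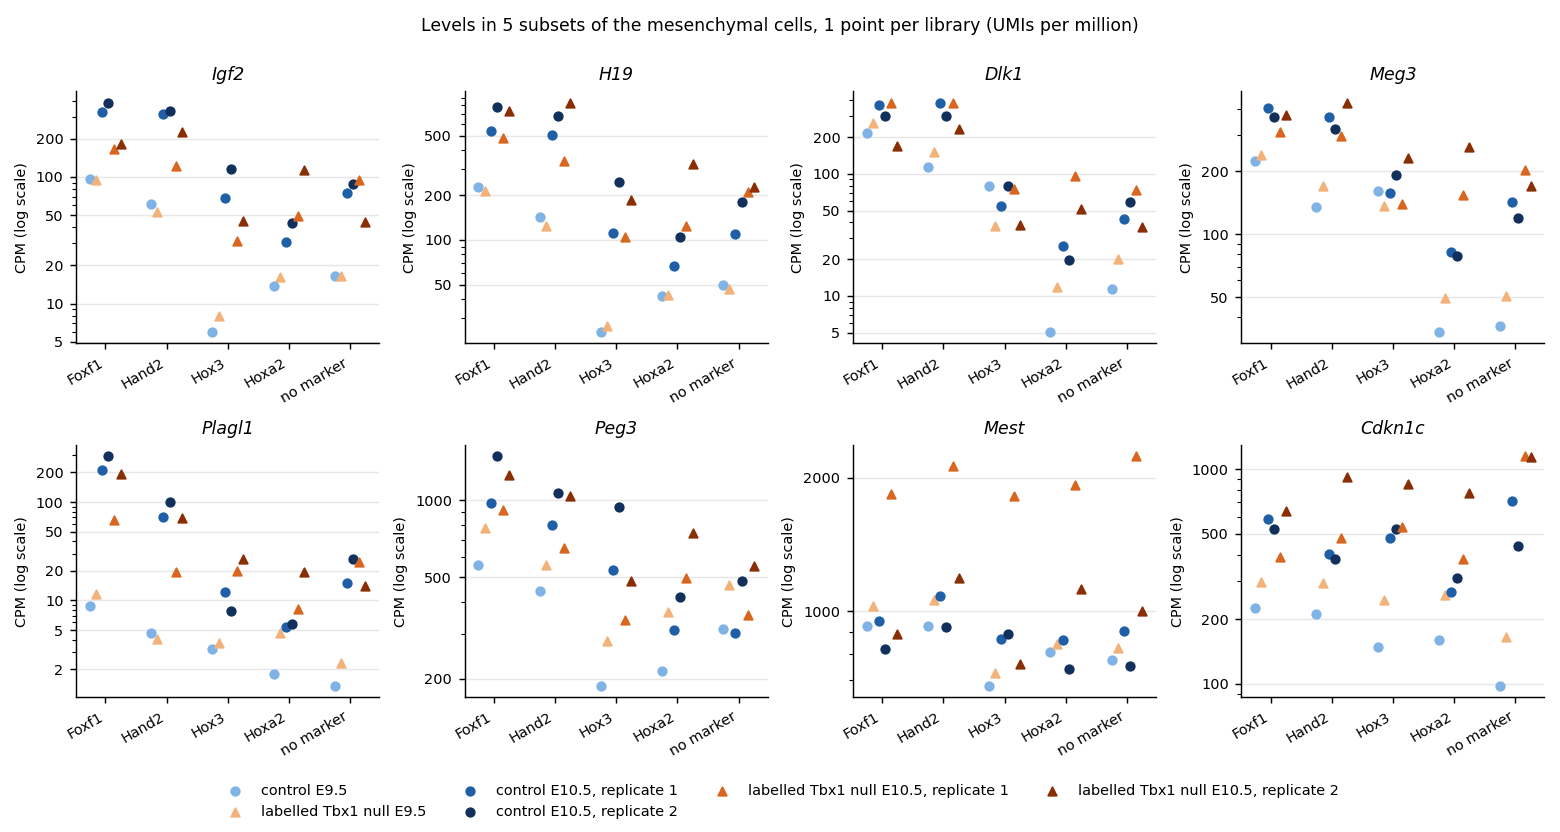
CPM (log axis) of 8 of the 10 genes in the Foxf1, Hand2, Hox3, Hoxa2 and no-marker mesenchyme of the 6 libraries of E9.5 and E10.5, with 1 point a library. Igf2, H19, Dlk1 and Peg3 step down from the Foxf1 and Hand2 subsets to the other 3 in each library.

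Mesenchymal cells with at least 3 UMIs of Mki67, Top2a, Cenpf and Ube2c together were compared with those with none. Of the 10 genes, 6 were lower in these cycling cells and 2 higher, where 15.5% of 13621 genes tested were called lower and 21.7% higher. Cdkn1c, which blocks entry into the cell cycle, was 4.31-fold lower, at 134, 341, 342, 215, 410 and 758 CPM in cycling cells and 1657, 1636, 1334, 1609, 1666 and 1688 in non-cycling cells (control E9.5, control E10.5, labelled null E9.5, labelled null E10.5). The groups did not overlap, and the non-cycling level was within 1334 to 1688 CPM in all 6 libraries (log2 difference -2.11 ± 0.21, adjusted p = 9.3e-06).

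Plagl1 was lower in cycling cells by 2.47-fold, Igf2 by 2.02-fold, Meg3 by 1.59-fold, Grb10 by 1.35-fold and H19 by 1.34-fold (log2 differences -1.31 ± 0.27, -1.01 ± 0.11, -0.67 ± 0.09, -0.44 ± 0.08 and -0.42 ± 0.13). Igf2 was at 25.5 to 177 CPM in cycling and 68.4 to 505 in non-cycling cells, lower in the cycling cells of each library. In the second labelled null E10.5 library Plagl1 and H19 were higher in cycling cells (61.5 against 35.4 and 411 against 352 CPM), and in the other 5 lower. Peg10 and Peg3 were higher by 0.50 ± 0.16 and 0.25 ± 0.08, and both calls were lost with cells thinned to 5000 UMIs (0.09 and -0.02). Cells were classed anew from the thinned counts, so that fit also compares other sets of cells. Non-cycling cells were few, 30 to 397 a library, and shallower (9597 to 15445 median UMIs against 17250 to 24956). The median log2 difference of all genes was 0.02 and 58.3% of calls were higher. With DESeq2, which changes scaling and test together, these were -0.17 and 46.0%, and with its size factors alone in edgeR -0.05 and 49.8%.

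Between E9.5 and E10.5, 5 of the 10 genes rose in mesenchyme and none fell, where 11.5% of 16452 genes tested were called higher and 12.1% lower. The fit had genotype as a term and 2 libraries at E9.5 against 4 at E10.5. Stage cannot be told apart from the dissection, since only the E9.5 tissue held the first arch. The makeup of the class moved with stage too: no-marker cells were 46.1% and 46.2% of mesenchymal cells at E9.5 and 3.14% to 12.5% at E10.5, and Foxf1 cells 5.29% and 7.70% against 12.2% to 16.9%. Plagl1 rose most, by 11.1-fold (log2 difference 3.48 ± 0.45, adjusted p = 0.00638), from 2.78 and 3.96 CPM to 60.8, 74.1, 26.9 and 61.6. H19 rose by 3.32-fold, Igf2 by 3.31-fold, Cdkn1c by 2.07-fold and Meg3 by 1.73-fold (1.73 ± 0.28, 1.72 ± 0.30, 1.05 ± 0.22 and 0.79 ± 0.18).

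The other 5 genes did not pass. Dlk1 was at 0.93 ± 0.34 (adjusted p = 0.0831), with CPM of 53.6 and 70.5 at E9.5 and 101 to 210 at E10.5. Mest was at 796 and 879 CPM at E9.5 and at 947, 838 and 897 in 3 of the E10.5 libraries, but at 1932 in the first labelled null library, which was near 2000 in every mesenchymal subset (1816 to 2232). That library had kit v3, as had the labelled null E9.5 library with 879. Within kit v3, labelled null E10.5 over labelled null E9.5, the ratios were 6.78 for Plagl1, 3.26 for H19, 2.88 for Igf2, 2.22 for Cdkn1c and 2.02 for Meg3. Within kit v3.1 and within controls, E10.5 over E9.5, they were 21.9 to 26.7, 4.13 to 5.93, 6.69 to 7.56, 2.85 to 3.04 and 2.42 to 2.69.

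The E8.5 library (kit v2, with the head) was lower still for most genes and entered no test. Its mesenchymal CPM were 6.48 for Igf2, 26.4 for H19, 1.95 for Dlk1, 0.176 for Plagl1, 97.4 for Peg3 and 44.1 for Cdkn1c, below both E9.5 libraries. Meg3 at 99.8 lay between them and Mest at 1117 above them. Together the 10 genes took 0.152% of the UMIs of E8.5 mesenchyme, 0.171% and 0.210% a day later and 0.327% to 0.409% at E10.5.

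In Hox3 mesenchyme (Hox genes are silent in the first arch) 4 of the 10 genes rose (9.15% of 14432 genes tested called higher, 8.74% lower). Igf2 rose by 6.09-fold, from 5.98 and 7.98 CPM to 31.0 to 115, and H19 by 4.81-fold, Plagl1 by 3.30-fold and Cdkn1c by 2.33-fold. Meg3 was at -0.13 ± 0.22 and Dlk1 at -0.23 ± 0.33 there. In neural cells 4 rose and 1 fell (11.3% of 15070 called higher, 7.55% lower): Cdkn1c rose by 4.55-fold, Dlk1 by 4.51-fold, Meg3 by 2.77-fold and Plagl1 by 1.87-fold, and Peg3 fell by 1.79-fold. Neural Igf2 was at 3.50 and 4.34 CPM at E9.5 and 2.71 to 13.8 at E10.5, with overlapping groups (0.35 ± 0.51, adjusted p = 0.65). The makeup of the neural class moved with stage: neuronal cells were 10.9% and 11.0% of it at E9.5 and 41.0% to 69.5% at E10.5. Within progenitors Cdkn1c went from 172 and 183 CPM to 325 to 690 and Plagl1 from 12.6 and 13.8 to 39.5 to 57.3, but Meg3 was lower at E10.5 (73.7 and 74.1 against 23.5 to 49.7), and Dlk1 (3.78 and 6.42 against 2.89 to 9.78) and Peg3 (84.8 and 93.5 against 61.1 to 118) overlapped. Within neuronal cells Dlk1 went from 2.02 and 3.47 to 21.7 to 68.4 CPM and Meg3 from 91.2 and 126 to 390 to 541, with Peg3 lower (110 and 136 against 33.1 to 62.9). These were not tested within progenitors or neuronal cells.

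These stage calls rested on both E9.5 libraries. Without the control E9.5 library none of the 10 genes, and none of all genes, passed in any of the 3 classes, which leaves 1 library at E9.5 assumed to vary like the rest. Without the labelled null E9.5 library fewer of the 10 passed in each of the 3 classes, again with 1 library at E9.5. The share of all genes in that fit is not given here.

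**Figure D3:**
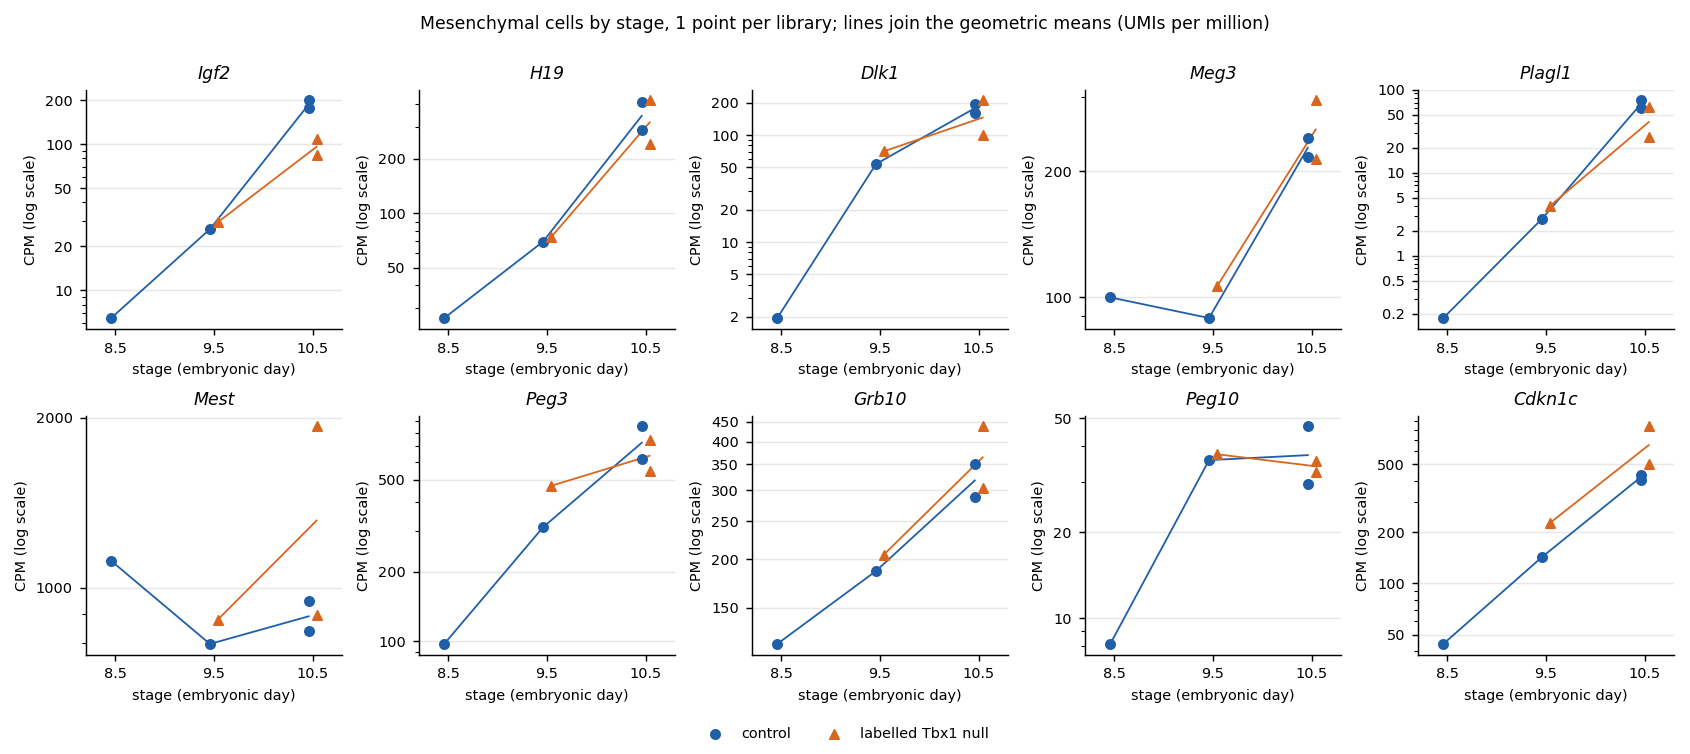
Mesenchymal CPM (log axis) of the 10 genes in the 7 libraries by stage, controls and labelled Tbx1 null apart, with lines joining the geometric mean of each stage. Plagl1 climbs from 0.176 at E8.5 to 26.9 to 74.1 at E10.5, while Mest and Peg10 overlap between E9.5 and E10.5.

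**Figure D4:**
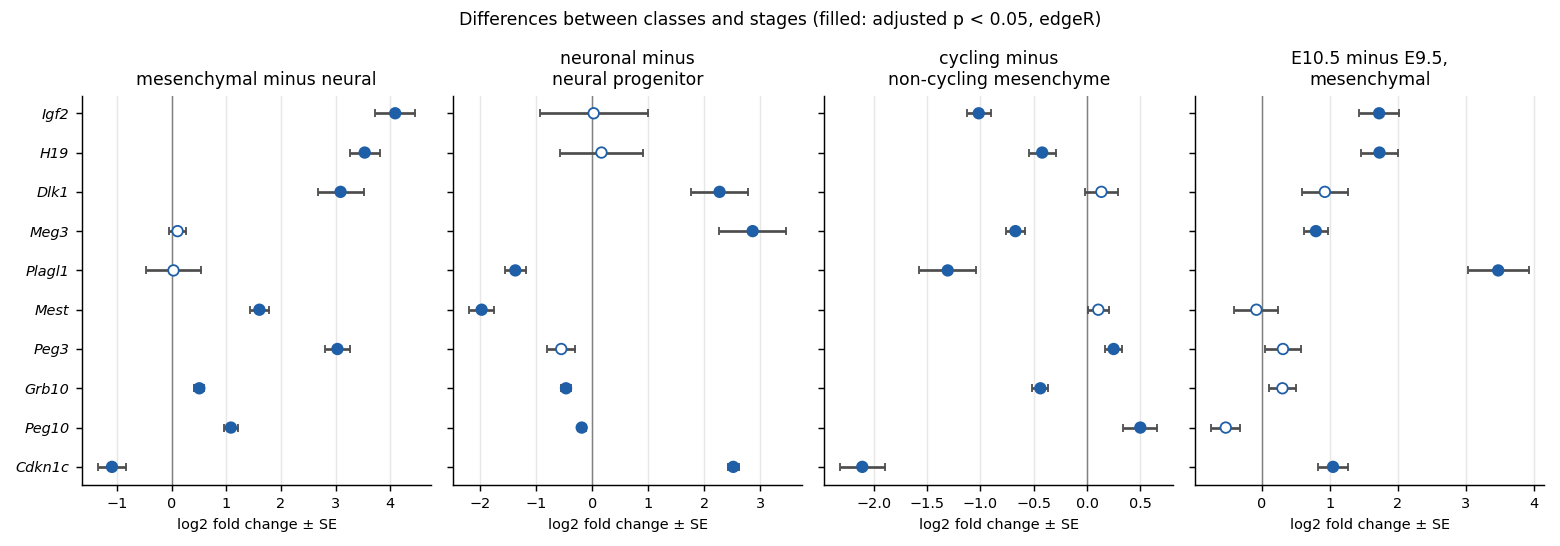
Log2 differences with SE of the 10 genes in 4 contrasts over 6 libraries (mesenchymal minus neural, neuronal minus neural progenitor, cycling minus non-cycling mesenchyme, E10.5 minus E9.5 in mesenchyme); filled points passed an adjusted p of 0.05. Cdkn1c is below 0 in mesenchyme and in cycling cells and above 0 in neuronal cells and at E10.5.

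The study's genotype comparison had 2 libraries a group at E10.5. The study lists fewer somites for the first labelled null pool than for the second and for both control pools. That pool alone among these libraries had kit v3, so somite stage, kit and label cannot be told apart in it. None of the 10 genes was called in any of the 8 classes tested, by edgeR, nor in the test of whether the genotype difference varied between mesenchymal and neural cells. Few genes were called at all: 0.1% of 15922 in mesenchymal cells, 0.0316% in Sox10 cells, 0% in neural cells, 0.0708% in Foxf1, 0.392% in Hand2, 0.0143% in Hox3, 1.77% in Hoxa2 and 0.304% in no-marker mesenchyme, and 0.0668% in the interaction. At an unadjusted p under 0.05 there were 1 of the 10 in mesenchymal, 2 in Sox10, 0 in neural, 2 in Foxf1, 2 in Hand2, 4 in Hox3, 9 in Hoxa2 and 2 in no-marker cells and 3 in the interaction, and DESeq2 called 1, 0, 0, 1, 1, 1, 3, 1 and 0 in the same order, and of all genes 4.32%, 0.5%, 0.243%, 0.771%, 2.4%, 1.11%, 3.59%, 2.23% and 2.33%. The share of all genes tested at that unadjusted p was 15.0%, 9.81%, 4.10% (629 genes), 11.3%, 13.3%, 10.7%, 17.2%, 17.7% and 11.3%, so that 1 or 2 of 10 lie near it. An exact permutation test of 2 libraries against 2 cannot go below p = 0.333. Each fit below that leaves out 1 of these libraries leaves 1 in a group, which is assumed to vary like the other group.

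Igf2 stood lower in the labelled null mesenchyme. It was at 84.4 and 109 CPM against 176 and 199 in controls, and the groups did not overlap; 16.5% of genes of at least 10 CPM were lower in both labelled null libraries in this way. The log2 difference was -1.15 ± 0.22 (2.22-fold, adjusted p = 0.177), with DESeq2 at -1.13 ± 0.24 (adjusted p = 0.000212). With cells of more than 1 class rule left out the labelled null values were 114 and 184 against 195 and 201, and the difference -0.56 ± 0.25 (adjusted p = 0.432). Without the second labelled null library it was -1.24 (adjusted p = 0.148), and with cells thinned to 5000 UMIs -0.87 ± 0.26 (adjusted p = 0.237). The makeup of the class differed with the label. Hox3 cells, which are low in Igf2, were 40.4% and 56.0% of mesenchymal cells in the labelled null libraries against 22.4% and 15.9% in controls. Hand2 cells, which are high in it, were 22.8% and 19.7% against 28.8% and 33.1%. Without multiply classed cells, Hox3 cells were 547 of 2137 and 196 of 622 against 423 of 2806 and 904 of 6228. Hand2 cells were then 627 of 2137 and 178 of 622 against 903 of 2806 and 2120 of 6228. These shares differed less, in the same direction. The values within subsets follow.

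Igf2 was lower in the same way in the Foxf1, Hand2 and Hox3 subsets, where 16.1%, 15.4% and 15.3% of genes of at least 10 CPM were lower without overlap. In Foxf1 mesenchyme it was at 168 and 183 CPM against 323 and 386 (-1.12 ± 0.23, adjusted p = 0.142), and without multiply classed cells at 171 and 217 against 320 and 381 (-0.93 ± 0.24, adjusted p = 0.295). Foxf1 Igf2 passed the threshold without the first labelled null library (-1.07, adjusted p = 0.000731) and without the second (-1.12, adjusted p = 0.000323), fits in which the lone library is assumed to vary like the controls, but not without the first control library (-1.24, adjusted p = 0.225) or the second (-0.98, adjusted p = 0.865). In Hand2 mesenchyme the values were 122 and 228 against 316 and 333, and without multiply classed cells 142 and 280 against 320 and 335 (-0.76 ± 0.30, adjusted p = 0.438). The Hand2 difference was -1.48 without the second labelled null library (adjusted p = 0.0446) and -0.70 without the first (adjusted p = 0.119), with adjusted p = 0.438 and 0.790 without the first and second control libraries. In Hox3 mesenchyme the values were 31.0 and 44.6 against 68.0 and 115, but without multiply classed cells 55.9 and 104 against 103 and 124, where the groups overlapped (-0.64 ± 0.29, adjusted p = 0.423). The Hox3 difference was -1.65 without the second labelled null library (adjusted p = 0.0552) and -1.23 without the first (adjusted p = 0.106). In Hoxa2 mesenchyme it lay on the other side, at 48.8 and 113 against 30.7 and 43.3 (0.96 ± 0.36, adjusted p = 0.213), but at 0.27 without the second labelled null library (adjusted p = 0.525), 1.40 without the first (adjusted p = 0.0136), 0.66 and 1.23 without the first and second control libraries (adjusted p = 0.660 and 0.169) and 0.01 with thinned cells (adjusted p = 0.992). Sox10 and no-marker cells had overlapping groups, as had neural cells with 2.71 and 6.69 against 4.14 and 13.8.

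In Hoxa2 mesenchyme most of the 10 genes were higher in the labelled null libraries than in controls. In both labelled null libraries 9 of the 10 were higher than in both controls, beside 31.3% of genes of at least 10 CPM, and Peg10 overlapped. Without multiply classed cells it was 7 of the 10, since Plagl1 (3.04 and 13.5 against 4.02 and 4.78 CPM) and Cdkn1c (293 and 624 against 260 and 305) then overlapped too. The 31.3% is for all cells of the class, and no share of all genes without those cells is given here. Dlk1 was at 96.2 and 51.2 CPM against 25.6 and 19.6 (1.63 ± 0.34, adjusted p = 0.0545) and Meg3 at 153 and 261 against 81.8 and 78.4 (1.24 ± 0.27, adjusted p = 0.06). DESeq2 gave adjusted p = 0.000528 and 0.0015 for them. Without multiply classed cells Dlk1 was at 117 and 64.5 against 27.6 and 19.8 (1.87 ± 0.33, adjusted p = 0.0316) and Meg3 at 177 and 331 against 82.5 and 78.0 (1.53 ± 0.30, adjusted p = 0.0474), past the threshold. With cells thinned to 5000 UMIs before classing the differences were 1.09 ± 0.31 and 0.86 ± 0.25 (adjusted p = 0.142 and 0.155). Without the second labelled null library, which gave 136 Hoxa2 cells, they were 1.97 and 0.81, and without the first 0.99 and 1.51. Without the first control library they were 1.74 and 1.19 and without the second 1.43 and 1.20. In Sox10 cells Dlk1 was at 10.2 and 12.1 CPM against 2.76 and 4.63, again without overlap, as were 24.4% of genes of at least 10 CPM (1.51 ± 0.33, adjusted p = 0.264). It passed the threshold without the first labelled null library (1.60, adjusted p = 0.000481) and without the second (1.37, adjusted p = 0.00653), where the lone library is again assumed to vary like the controls, but not without the first control library (1.20, adjusted p = 0.718) or the second (1.96, adjusted p = 0.815). Of the Sox10 cells of the second labelled null library, 94.6% met more than 1 rule. Without multiply classed cells the values were 9.76 and 11.5 against 1.03 and 3.85 (1.69 ± 0.56, adjusted p = 0.221). These values rest on only 235 and 30 labelled null and 50 and 186 control cells.

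H19 was below both controls in mesenchyme of the first labelled null library but not of the second. Its mesenchymal CPM were 240 and 419 in the labelled null libraries against 287 and 413 in controls, with overlapping groups (-0.30 ± 0.31, adjusted p = 0.666). In the first labelled null library H19 was below both controls in Foxf1, Hand2 and Hox3 mesenchyme too. It was above both in Hoxa2 and no-marker mesenchyme. The number of H19 UMIs for each Igf2 UMI in mesenchyme, which needs no scaling between libraries, was 2.84 and 3.84 in the labelled null against 1.64 and 2.08 in the control libraries at E10.5, while at E9.5 the labelled null library was the lower, at 2.51 against 2.65. The first labelled null library alone, at 2.84, was thus above both controls, and without multiply classed cells the ratios were 2.71 and 3.56 against 1.63 and 2.07. In the 5 subsets without those cells both labelled null ratios were above both controls in Foxf1, Hand2, Hox3 and Hoxa2 mesenchyme, by the least in Hoxa2 (2.38 and 3.18 against 2.09 and 2.37), and overlapped in no-marker mesenchyme (1.92 and 3.64 against 1.41 and 1.93). Over the 8 exclusive classes (5 mesenchymal subsets, Sox10 cells, neural progenitors and neuronal cells), both labelled null ratios were above both control ratios in 7 and the groups overlapped in 1, the neuronal cells. In Sox10 cells the ratio was 10.7 and 11.3 against 7.28 and 8.38, and in neural cells 5.23 and 5.96 against 2.78 and 2.95. The control Sox10 ratios rest on 36 and 95 Igf2 UMIs. Without multiply classed cells the Sox10 ratios were 10.0 and 29 against 4.67 and 7.33. These rest on only 235 and 30 labelled null and 50 and 186 control cells. Igf2 was at 7.69 and 3.28 against 6.18 and 9.63 CPM in them. The 8 classes come from the same 4 libraries, no test was made, and an exact test could not pass. How often other pairs of genes part in this way is not given here.

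Plagl1 and Mest varied between the 2 labelled null libraries, of which the first was the pool with fewer somites and kit v3. Plagl1 in Foxf1 mesenchyme was at 65.4 and 192 CPM against 212 and 291 (-1.10 ± 0.40, adjusted p = 0.352). It was at -1.98 without the second labelled null library and at -0.50 without the first, and at -1.31 and -0.85 without the first and second control libraries. Mest in mesenchyme was at 1932 and 897 against 947 and 838, a difference of 0.51 ± 0.42, which was -0.23 without the first. Cdkn1c was at 504 and 837 against 435 and 408 in mesenchyme (0.46 ± 0.27, adjusted p = 0.447), and the neural check genes were at 160 and 294 CPM against 107 and 63.2 in the same cells. Without multiply classed cells Cdkn1c was at 399 and 729 against 429 and 387, with overlapping groups (0.31 ± 0.29, adjusted p = 0.682), and with cells thinned to 5000 UMIs the difference was 0.08 ± 0.27 (adjusted p = 0.925).

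At E9.5, with 1 library a group and no test, all 10 genes had a higher mesenchymal CPM in the labelled null library, with ratios of 1.05 to 1.58 whose 95% counting intervals excluded 1. Of all 6691 genes with a mean of at least 10 CPM there, 45.6% had such an interval above 1. Cdkn1c was at 227 against 143 CPM, Peg3 at 471 against 312 and Igf2 at 29.3 against 26.3. The kits differ (v3 and v3.1), so kit and genotype cannot be told apart there. The makeup of the class differed too. Foxf1 cells were 7.70% and Hand2 cells 20.2% of mesenchymal cells in the labelled null library, against 5.29% and 15.8% in the control. The part of makeup in the ratios was not tested. In Foxf1 mesenchyme the Igf2 ratio was 0.973 (interval 0.889 to 1.07) and in Hand2 mesenchyme 0.868 (0.808 to 0.932). Other classes held genes on the other side: Dlk1 in Hox3 mesenchyme was at 37.1 against 79.6 CPM (ratio 0.466, interval 0.431 to 0.503), Igf2 in Sox10 cells had a ratio of 0.726 (0.560 to 0.935) and Mest in neural cells one of 0.856 (0.835 to 0.877). H19 had ratios of 0.868 (0.829 to 0.909) in Hand2 and 0.936 (0.890 to 0.985) in no-marker mesenchyme. Of the 10 genes, 2 had an interval below 1 in each of the Hand2, Hox3, Sox10 and neural classes, 1 in no-marker mesenchyme, and 4 below and 3 above in neuronal cells. Of all genes with a mean of at least 10 CPM, 20.1%, 21.6%, 13.6%, 24.6% and 27.7% had an interval below 1 in those classes in the same order, so 2 of 10 lies near the first 4 of these shares, and in neuronal cells 11.4% were below and 9.88% above. Above 1 in the same 5 classes were 7, 5, 5, 3 and 7 of the 10, beside 33.2%, 33.7%, 20.9%, 23.0% and 36.2% of all genes. In Foxf1 and Hoxa2 mesenchyme 6 and 7 lay above, beside 23.7% and 25.0%, and 0 below.

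**Figure D5:**
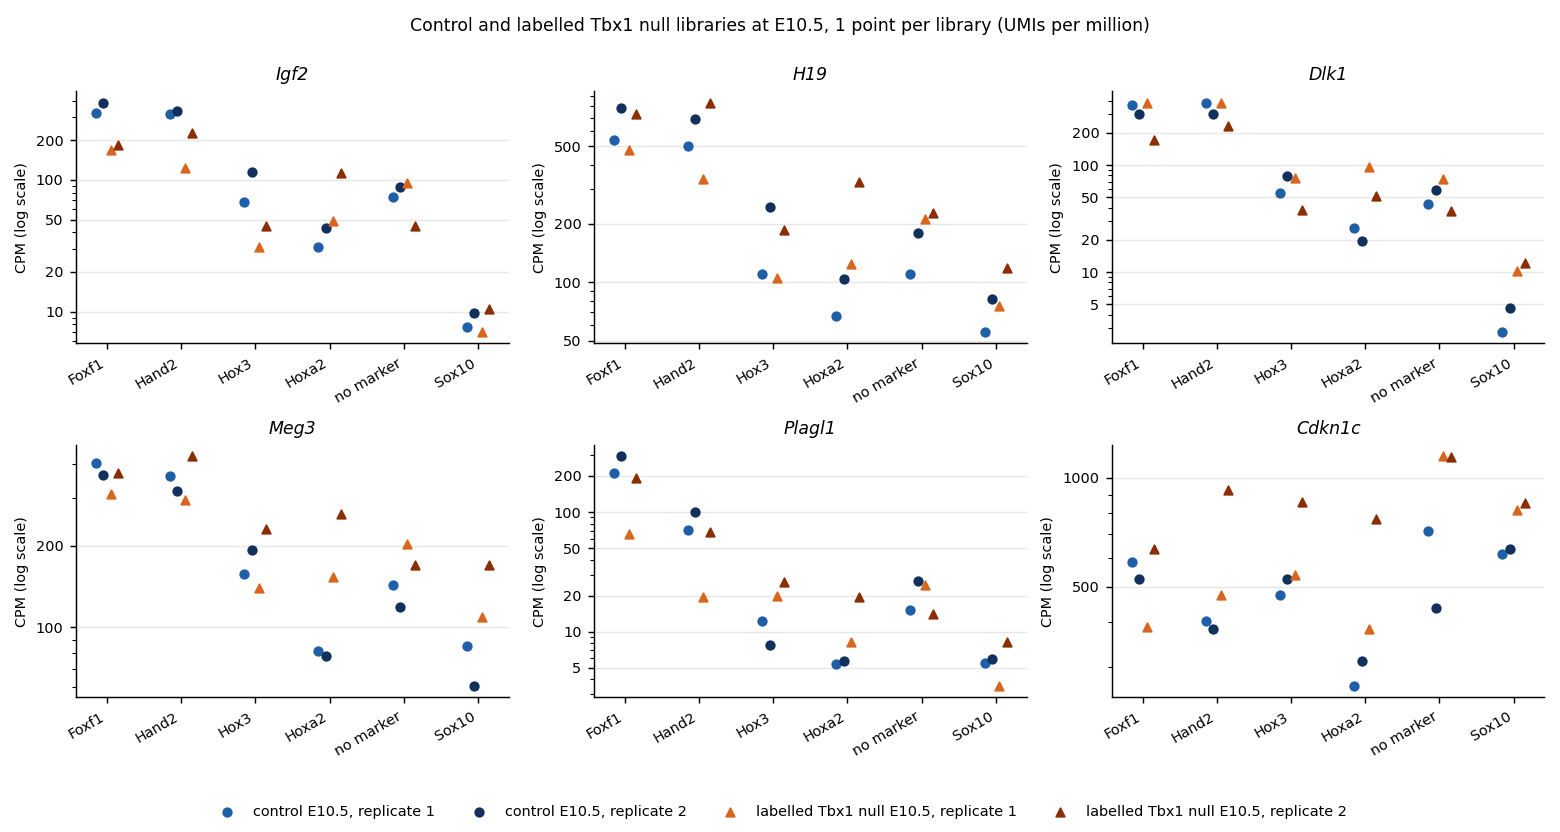
CPM (log axis) of 6 of the 10 genes at E10.5 in the 5 mesenchymal subsets and Sox10 cells, with 2 control and 2 labelled Tbx1 null libraries. Igf2 lies lower in the labelled null libraries in Foxf1, Hand2 and Hox3 mesenchyme and higher in Hoxa2 mesenchyme, where Dlk1 and Meg3 are higher too.

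The remaining imprinted genes were read from a list of 46, of which 45 were in the files. In mesenchymal against neural cells 17 were higher and 12 lower of 40 tested (27.8% and 23.8% of all genes), with a median log2 difference of 0.04 (0.04 for all genes). Zim1, a neighbour of Peg3, was at 3.78 ± 0.31, Airn, a noncoding RNA that overlaps Igf2r on the other strand and is less certain for it, at 3.07 ± 0.17, Usp29, also beside Peg3, at 2.32 ± 0.12, and Kcnk9, a potassium channel, at -2.69 ± 0.56. In Foxf1 mesenchyme 17 were higher and 2 lower of 39, beside 12.8% and 12.7% of all genes, led by Magel2 at 3.09 ± 0.15, and by Rtl1, Dio3 and Mirg of the Dlk1 and Meg3 cluster at 2.71 ± 0.34, 1.93 ± 0.29 and 1.49 ± 0.16. In Hand2 mesenchyme 14 were higher and 1 lower of 39 (5.24% and 4.77% of all genes), and in Hoxa2 mesenchyme none was higher and 10 lower of 39 (1.49% and 2.32%), again with Rtl1 (-2.10 ± 0.57) and Dio3 (-1.88 ± 0.42). In neuronal cells 20 were higher and 6 lower of 36, where 32% of all genes were called higher and 32.9% lower, with Mirg and Rian, both on the Meg3 strand, at 2.96 ± 0.37 and 2.23 ± 0.45. None was called between genotypes at E10.5 in any class.

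Of 8 IGF pathway genes, Igf1, the other ligand, was 62.4-fold higher in mesenchymal than in neural cells (5.96 ± 0.49) and rose from E9.5 to E10.5 in mesenchyme by 4.55 ± 0.40. In the mesenchymal and neural contrast 3 of the 8 were higher and 1 lower, the receptor adaptor Irs1 at -0.98 ± 0.13, near the 27.8% and 23.8% of all genes. In cycling mesenchyme the RNA-binding proteins Igf2bp1, Igf2bp2 and Igf2bp3, which bind Igf2 mRNA, were higher by 0.54 ± 0.07, 0.36 ± 0.08 and 0.31 ± 0.07, and Irs1 lower. Of 8 genes that keep imprints in place, 7 were tested: 4 were higher in cycling mesenchyme and none lower (21.7% and 15.5% of all genes), Uhrf1 at 1.25 ± 0.09, Dnmt1 at 0.96 ± 0.10, Ctcf at 0.82 ± 0.08 and Trim28 at 0.53 ± 0.06. Uhrf1 and Dnmt1 copy DNA methylation at replication.

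The genes were also compared by pattern over 54 sums (5 mesenchymal subsets, Sox10 cells, neural progenitors and neuronal cells of each library with at least 20 cells), which share libraries and depth, so the correlations are descriptions. Of the 45 pairs of the 10 genes, 43 had a positive Pearson correlation of log2(CPM + 1), with a median of 0.47. The share of positive pairs among all genes is not given here, so this count has no background. Igf2 and H19 were the closest pair at 0.96, followed by Igf2 and Peg3 at 0.90, and Mest and Cdkn1c were the farthest at -0.45. Among all 7681 genes of at least 10 CPM, the gene most like Igf2 was H19, the one most like Meg3 was Rian (0.93), the one most like Peg3 was Usp29 (0.96), and the one most like Dlk1 was Asb4 (0.85), a further imprinted gene. For Cdkn1c it was App (0.95), for Mest Pgap2 (0.94), for Grb10 Cast (0.94) and for Peg10 Casd1 (0.85), which lies near it on chromosome 6.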

How the data were processed

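Cells sorted by the neural crest label were profiled in 7 libraries with 10x 3' kits. The authors made the deposited counts (whole UMI counts per gene and barcode) with Cell Ranger 6.0.1 on mm10. Barcodes under 1000 genes or over 10% mitochondrial UMIs were dropped, and the highest Scrublet doublet scores (scanpy 1.11.5; 0.8% per 1000 barcodes) were removed. UMIs were summed per library and class (at least 20 cells) and tested with edgeR 4.0.16 in R 4.3.3 (TMM, filterByExpr, quasi-likelihood test, Benjamini-Hochberg adjusted p below 0.05 over all genes). SE is the log2 difference divided by the root of F. Class, subset and cycling contrasts had library as a block, stage had genotype as a term, and genotype was tested at E10.5 only, since E9.5 had 1 library a group. The steps were tested on simulated data. DESeq2 1.42.0, other filters, thinning and leaving out each library were alternatives. In all thinned fits cells were classed anew from the thinned counts. The shares of cells with a UMI after thinning kept the classes of the full counts. Replicates are separate pools of embryos per the study's methods. The members and lists were chosen with earlier results of these data known. All 10 genes are named whatever their values, and from each list at most 4 called genes a comparison. Intervals cover counting error only. Embryos were not sexed.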

Additional observations from a re-analysis of the deposited data

How the results depend on the processing

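Of 75 called values of the 10 genes, 45 kept their direction and call in every alternative run; over 1045 alternative fits 946 kept both, 97 lost the call (71 of them leaving out a library) and 2 reversed. Reversed were Mest in Hox3 mesenchyme without multiply classed cells (0.0404 against -0.24) and Peg3 in cycling mesenchyme with thinned cells (-0.0165 against 0.25). In the genotype comparison at E10.5, where 0 of the 10 genes were called, DESeq2 called 1 in mesenchymal, Foxf1, Hand2, Hox3 and no-marker cells and 3 in Hoxa2 cells. With no filter on low counts 2 were called in mesenchymal, Sox10, Foxf1, Hand2 and no-marker cells, 5 in Hoxa2 cells and 1 in the interaction, where of all genes 6.2%, 1.63%, 2.38%, 4.24%, 4.89%, 5.47% and 3.54% were called. Requiring 4 mesenchymal UMIs, or leaving out multiply classed cells, gave 2 in Hoxa2 cells. Cell filters with fewer genes and a lower mitochondrial limit (200 genes, 5% mitochondrial UMIs) gave 1 in no-marker cells. The share of all genes called in these fits is not given here, so these counts have no background to be read against. With a replicate block 1 was called in Sox10 and neural cells, 2 in Foxf1 and Hand2 cells and 5 in Hoxa2 cells, beside 0.805%, 2.28%, 7.05%, 5.55% and 7.36% of all genes; the labels share only a number, and deviations of same-numbered libraries correlated at 0.14 to 0.59 over 8 classes. The share of mesenchymal cells with an Igf2 UMI in the first control E10.5 library was 41.7% at 5000 UMIs, 31.9% at 3000 and 64.4% unthinned. The cause was not tested.

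Leaving out 1 library at a time, the number of the 10 genes called ranged from 8 to 8 against neural cells, 8 to 9 against Sox10 cells, 6 to 8 in neuronal cells, 6 to 7 in Foxf1, 6 to 8 in Hand2, 3 to 4 in Hox3, 4 to 7 in Hoxa2 and 1 to 4 in no-marker mesenchyme and 5 to 8 in cycling cells. For stage it ranged from 0 to 6 in mesenchymal, 0 to 5 in Hox3 and 0 to 6 in neural cells, with 3 in mesenchymal and neural cells without the first control E10.5 library. For genotype it ranged from 0 to 0 in mesenchymal, neural and Hox3 cells, 0 to 2 in Sox10, Hand2 and no-marker cells and in the interaction, 0 to 3 in Foxf1 and 0 to 6 in Hoxa2 cells. Hoxa2 mesenchyme had 4 without the first control E10.5 library, no-marker mesenchyme 2 and 1 without the first and second, and cycling cells 5 without control E9.5 and without the first labelled null E10.5 library. The share of all genes called in each of these fits is not given here, so the counts have no background to be read against.

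Over all genes, calls moved by over 1.5 times from 4762 (2319 to 5498) against Sox10 cells, 3523 (876 to 3772) in Foxf1, 1388 (608 to 1731) in Hand2, 3962 (922 to 4759) in Hox3, 527 (223 to 671) in Hoxa2 and 654 (278 to 952) in no-marker mesenchyme and 5067 (2349 to 5350) in cycling cells. For stage they were 3894 (0 to 5226) in mesenchymal, 2582 (0 to 3681) in Hox3 and 2836 (0 to 4281) in neural cells. For genotype they were 16 (0 to 1416) in mesenchymal, 4 (0 to 717) in Sox10, 0 (0 to 349) in neural, 9 (1 to 1248) in Foxf1, 53 (0 to 871) in Hand2, 2 (1 to 244) in Hox3, 229 (3 to 1072) in Hoxa2 and 35 (1 to 901) in no-marker cells and 11 (0 to 1447) in the interaction.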
